A study of Mus musculus with 17 samples.

Results

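Nerve injury was examined in dorsal root ganglia of mice labelled Twik1 knockout. Dorsal root ganglia are where the bodies of sensory neurons sit next to the spinal cord, and those of lumbar levels L4 to L6 send axons into the sciatic nerve. Of the 17 bulk RNA-seq libraries in the series, 7 carry the label KO and were taken as members by that label and by treatment: 3 with a chronic constriction injury (CCI, in which the nerve is loosely tied; titles CCI_KO 2, 3 and 4) and 4 after a sham operation (Sham_KO 1 to 4). The 10 remaining libraries are labelled WT (wild type), 5 CCI and 5 sham, and served to estimate the spread between libraries and for values side by side. All 17 libraries are of total RNA of L4 to L6 ganglia and carry the entry day 30 under the tag batch. The sources used here do not give strain, age, the deleted part of the gene or whether ganglia of several mice were pooled, and nothing says whether libraries of a group come from separate mice. The p-values therefore measure the spread between these libraries, which may be partly technical.

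Twik1, encoded by Kcnk1, belongs to the two-pore-domain potassium channels, which carry background potassium currents that help set the resting potential of neurons. When a sensory axon is damaged, its cell body in the ganglion switches on transcription factors such as Atf3, Jun and Sox11, growth-associated proteins and neuropeptides, and turns down many ion channel genes. Satellite glia, which wrap each neuron body, macrophages and Schwann cells respond as well.

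The 7 libraries held 52763482 to 59395852 gene counts in the sham group and 55818145 to 70369090 after CCI. Levels are given in CPM, the counts of a gene scaled to a common library size, and ± after a log2 change is the standard error. Kcnk1 stood at 77.9, 75.1, 91.8 and 114.5 CPM in sham libraries 1 to 4 and at 78.3, 89.0 and 84.5 CPM in CCI libraries 2, 3 and 4. It was thus still counted in all 7, and counts over all exons do not check a deletion of unknown extent, so genotype is given here as labelled. Sham libraries 1 and 2 stood apart from libraries 3 and 4, in more than 1 way, but libraries 3 and 4 were not alike either. The chi-square per degree of freedom, pooled over genes, was 14.81 between libraries 1 and 2 and 55.26 between libraries 3 and 4. For a library of 1 pair against a library of the other it was 49.38 to 66.45. Sham libraries 1 and 2 held injury transcripts, with Atf3 at 140.6 and 103.3 CPM against 11.1 and 13.2 CPM in libraries 3 and 4. Their repair Schwann cell markers summed to 870.5 and 924 CPM, against 492.3 and 509.4 CPM in libraries 3 and 4 and 608.9 to 639.6 CPM after CCI. That list includes Jun and Bdnf, which injured neurons also express, so its sum is not particular to Schwann cells. Jun was at 148.5 and 137.8 CPM in libraries 1 and 2, against 77.2 and 74.1 CPM in libraries 3 and 4. Sham library 3 held skeletal muscle markers at 1187 CPM, against 6.97 to 22.6 CPM in the other 3 sham libraries and 188.9 to 329.1 CPM after CCI. Sham library 4 held neutrophil markers at 1425 CPM, red blood cell markers at 1896 CPM and bone and cartilage markers at 79.7 CPM. The other 3 sham libraries held 18.9 to 167.5, 130.4 to 287.2 and 14.5 to 16.5 CPM of these lists. Among the defining markers, Acta1 of skeletal muscle was at 399.8 CPM in sham library 3 and at 1.82 to 7.25 CPM in the other sham libraries, and S100a8 of neutrophils was at 245.4 CPM in sham library 4 and at 3.90 to 34.9 CPM in the others. The sensory neuron list summed to 17540 to 18540 CPM in sham and 18040 to 19750 CPM after CCI. Spinal cord glia markers summed to 99.6 to 134.3 CPM over all 7 libraries, with Olig2 at 0 in each.

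**Figure D1:**
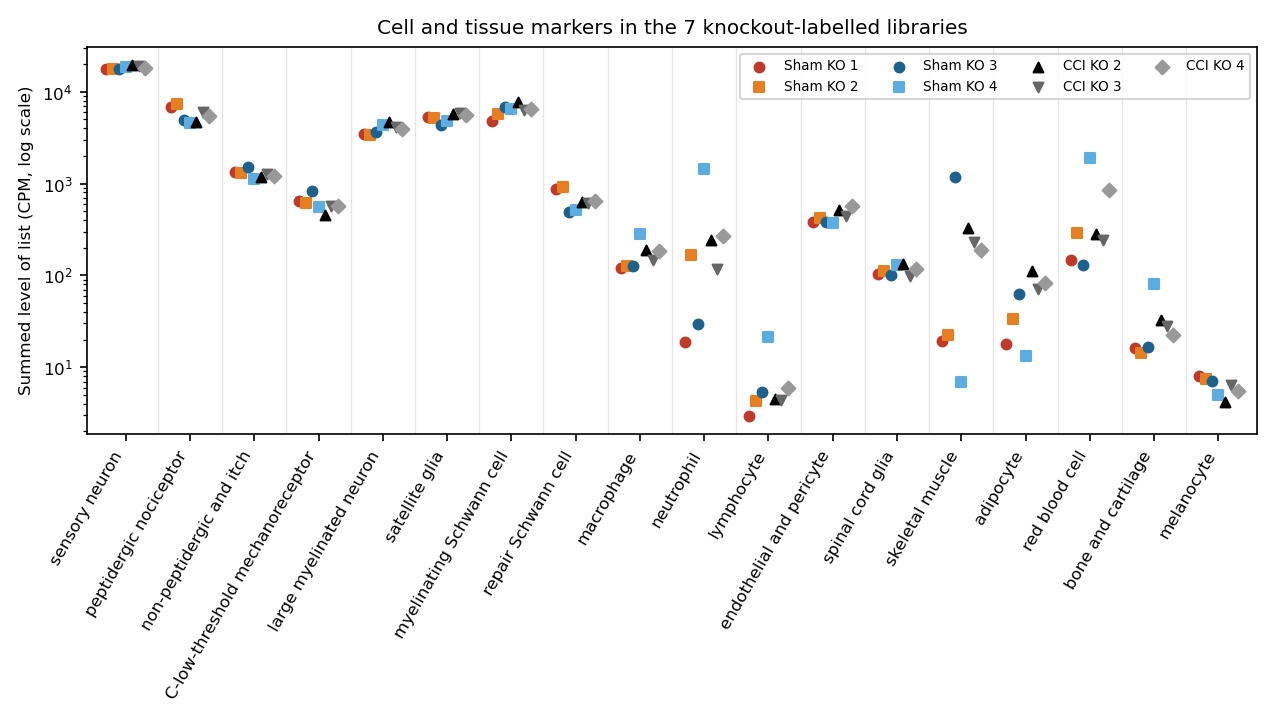
Summed level of 18 cell and tissue marker lists (CPM, log axis) in each knockout-labelled library; each symbol is 1 library. Sensory neuron markers lie close together in all 7 libraries, at 17540 to 19750 CPM. Sham library 3 is highest for skeletal muscle, sham library 4 for neutrophil, red blood cell and bone markers, and sham libraries 1 and 2 for repair Schwann cell markers. The repair Schwann cell list includes Jun and Bdnf, which injured neurons also express.

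The comparison was therefore fitted with all 4 sham libraries and again without libraries 1 and 2. Those 2 were left out for the injury transcripts they carry, so for injury genes the second set of values is a description that the choice of libraries favours. In bulk tissue, fewer cells of a type and less RNA per cell cannot be told apart. Each deposited table's name includes a number, shared by the sham libraries and different in the CCI libraries. It also differs between the knockout-labelled and wild-type CCI libraries. If it marks a batch, batch cannot be told apart from injury, nor from a difference in the injury effect between the labels.

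With all 4 sham libraries, single genes rather than whole lists passed the threshold. They included the matrix genes Lamc3 and Col5a3, the glial genes Ednrb and Ptprz1 and the phosphodiesterase Pde1a, which rose after CCI, and the muscarinic receptor Chrm1, the itch peptide Nppb and the phosphodiesterase Pde4c, which fell. edgeR's quasi-likelihood test called 20 of 23972 genes (0.0834%) at an adjusted p under 0.05, of which 17 rose (0.0709%) and 3 fell (0.0125%). For each of the 20, the 3 CCI libraries lay outside the range of the 4 sham libraries. That separation held upward for 4.41% and downward for 3.15% of all tested genes. Of the 20 genes, 12 also passed against sham libraries 3 and 4 alone and 14 against sham libraries 1 and 2 alone. The 7 that passed against both pairs, each taken alone, were Lamc3, Col5a3, Ednrb, Ptprz1, Pde1a, Fam171b and Chrm1, and Timp3 passed against neither. Single libraries set this count: leaving out CCI library 2 gave 0 (edgeR; 1288 genes at an unadjusted p under 0.05), CCI library 4 gave 3 and CCI library 3 gave 38. Leaving out sham library 1, 2, 3 or 4 gave 13, 1, 2 or 40. Leaving out 1 wild-type library, which enters only the scaling, the filter and the estimate of the spread, gave 4 to 43. For CCI libraries 1 to 5 it gave 5, 4, 43, 4 and 7. For sham libraries 1 to 5 it gave 5, 8, 22, 7 and 4.

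Among genes of the matrix, the largest rise was that of Lamc3, the laminin gamma-3 chain of basement membranes (ENSMUSG00000026840, GRCm39 chromosome 2, 31777258 to 31839117). It stood at 1.36, 1.80, 0.610 and 0.977 CPM in sham libraries 1 to 4 and at 5.91, 3.71 and 4.01 CPM in CCI libraries 2, 3 and 4. Every CCI library lay above every sham library, with sham library 3 lowest and CCI library 2 highest. The log2 change was 1.94 ± 0.32 (SE, edgeR adjusted p = 0.0160), and 2.51 ± 0.38 without sham libraries 1 and 2 (edgeR adjusted p = 0.00196). In wild type Lamc3 was at 3.44 ± 1.04 CPM in sham and 4.25 ± 0.93 CPM after CCI (SD, n = 5 each; change 0.31, edgeR adjusted p = 0.710). The 4 knockout-labelled sham libraries thus lay below the wild-type sham mean. The difference between the labels in the injury effect was 1.63 ± 0.41 (edgeR adjusted p = 0.502), which is not past the threshold.

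Col5a3, a chain of the fibril-regulating type V collagen, stood at 39.2, 38.0, 33.9 and 37.5 CPM in sham and at 62.4, 49.4 and 54.4 CPM after CCI. The sham libraries were within a narrow range and CCI library 3 was the lowest of the injured ones. The change was 0.58 ± 0.10 (edgeR adjusted p = 0.0160), and 0.63 ± 0.12 without sham libraries 1 and 2 (edgeR adjusted p = 0.0112). Timp3, an inhibitor of matrix metalloproteinases, went from 144.1 to 166.2 CPM in sham to 188.2 to 228.6 CPM after CCI (0.47 ± 0.09, edgeR adjusted p = 0.0483). Its call was lost without sham libraries 1 and 2 (0.43, edgeR adjusted p = 0.148), and its exons overlap those of Syn3 on the other strand, which these unstranded counts cannot separate. Of 21 laminin and basement membrane genes tested, 1 rose, 0 fell and 20 did not pass, with a median log2 change of 0.18 against -0.0055 over all genes. Without sham libraries 1 and 2, Nid2, a nidogen that links laminin to collagen, rose too (0.65 ± 0.15, edgeR adjusted p = 0.0345).

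Genes of satellite glia came next. Ednrb, the endothelin B receptor found on these cells, was at 120.6, 101.0, 97.8 and 98.1 CPM in sham and at 169.8, 154.9 and 170.8 CPM after CCI. Both groups were tight and far apart, with sham library 1 the highest of its group. The change was 0.66 ± 0.10 (edgeR adjusted p = 0.0160) with all libraries and 0.75 ± 0.12 (edgeR adjusted p = 0.00499) without sham libraries 1 and 2. Ptprz1, a receptor phosphatase of glia, was at 45.3 to 48.2 CPM in sham and at 57.3 to 62.7 CPM after CCI (0.37 ± 0.07, edgeR adjusted p = 0.0406), with 0.39 without sham libraries 1 and 2 (edgeR adjusted p = 0.0306). Of 14 satellite glia markers these 2 rose (0.0709% of all tested genes did) and 0 fell. All CCI libraries were above all sham libraries for 4 of 14 (28.6%, against 4.41% of all tested genes). All 14 had a positive change, against 49% of all tested genes (50% without sham libraries 1 and 2), with a median of 0.16. Apoe, a lipid carrier abundant in these cells, was called only without sham libraries 1 and 2 (0.28 ± 0.06, edgeR adjusted p = 0.0280; 0.19, edgeR adjusted p = 0.263 with all). The summed satellite glia level was 4394 to 5370 CPM in sham and 5568 to 5844 CPM after CCI. Whether a larger share of glia has a part in these rises was not tested.

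Abcg2, a drug efflux transporter of capillary endothelium, was at 150.2, 147.3, 114.5 and 145.4 CPM in sham and at 261.6, 208.0 and 204.5 CPM after CCI. No library of either group came near the other group's range. Its change was 0.69 ± 0.12 (edgeR adjusted p = 0.0449), and 0.79 ± 0.16 without sham libraries 1 and 2 (edgeR adjusted p = 0.0453). Of 17 endothelial and pericyte markers it alone was called, 15 had a positive change (49% of all genes did) and the median was 0.46. The tight junction gene Cldn5 narrowly missed the threshold (0.56, edgeR adjusted p = 0.0553). The list's sum was 372.2 to 425 CPM in sham and 439.5 to 567.8 CPM after CCI, and its part in the Abcg2 value was not tested. Cyp1b1, a cytochrome P450 that oxidises steroids and retinoids, went from 39.7, 31.9, 24.5 and 29.7 CPM to 94.9, 54.7 and 64.4 CPM (1.18 ± 0.20, edgeR adjusted p = 0.0492), with 1.40 ± 0.25 without sham libraries 1 and 2 (edgeR adjusted p = 0.0340). CCI library 2 was well above the other 2 injured libraries. Adipocyte markers were also higher after CCI (71.2 to 112.4 CPM against 13.3 to 63.4 CPM), with 0 of 8 tested called, and their part was not tested.

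Cyclic nucleotides, second messengers of many receptors, are broken down by phosphodiesterases, and members of this family moved both ways. Pde1a, a calcium- and calmodulin-activated form, stood at 9.37, 8.93, 10.1 and 8.69 CPM in sham and at 23.7, 18.6 and 16.4 CPM after CCI. The sham libraries were nearly equal and the lowest injured library lay well above them (1.08 ± 0.18, edgeR adjusted p = 0.0160; 1.06 ± 0.23, edgeR adjusted p = 0.0341 without sham libraries 1 and 2). It rose in wild type as well (1.52 ± 0.15, edgeR adjusted p = 4.9e-06). Pde4c, a cyclic AMP-specific form, was at 15.5, 14.2, 10.8 and 7.73 CPM in sham and at 3.76, 6.99 and 5.87 CPM after CCI (-1.12 ± 0.22, edgeR adjusted p = 0.0449). The gap between the groups was small, since sham library 4 came close to CCI library 3, and without sham libraries 1 and 2 the call was lost (-0.74, edgeR adjusted p = 0.188). Of 18 phosphodiesterase genes, 1 rose, 1 fell and 16 did not pass.

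Neuronal receptors, channels and peptides made up most of the rest. Chrm1, the M1 muscarinic acetylcholine receptor, was at 2.56, 1.62, 3.11 and 1.34 CPM in sham and at 0.591, 0.761 and 0.199 CPM after CCI, which is 14 to 42 counts in the injured libraries. All injured libraries were below all sham libraries, and CCI library 4 was lowest. The change was -2.07 ± 0.39 (edgeR adjusted p = 0.0449), and -2.11 ± 0.44 (edgeR adjusted p = 0.0231) without sham libraries 1 and 2. Of 12 acetylcholine receptor genes tested it was the 1 called, and 4 had a positive change.

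Nppb, the natriuretic peptide of itch neurons, was at 25.6, 21.5, 15.8 and 13.7 CPM in sham and at 6.36, 11.99 and 7.63 CPM after CCI (-1.15 ± 0.22, edgeR adjusted p = 0.0483). Sham libraries 1 and 2 were the highest, and without them the change was -0.77 (edgeR adjusted p = 0.113). Cysltr2, a leukotriene receptor of the same neurons, had a change of -0.89 (edgeR adjusted p = 0.151). Of 17 non-peptidergic and itch markers 1 fell and 0 rose. A negative change was seen in 16 and a positive one in 1 (5.88%, against 49% of all genes), with a median of -0.28. The list summed to 1113 to 1523 CPM in sham and 1192 to 1276 CPM after CCI.

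Asic3, a proton-gated channel of sensory neurons, was at 117.4, 114.3, 129.6 and 124.1 CPM in sham and at 177.3, 169.5 and 141.7 CPM after CCI (0.42 ± 0.08, edgeR adjusted p = 0.0406). CCI library 4 lay nearest the sham range. In wild type the change was -0.06 ± 0.07, and the labels differed by 0.49 ± 0.10 (edgeR adjusted p = 0.362), not past the threshold. The call of Asic3 was lost without sham libraries 1 and 2 (0.36 ± 0.09, edgeR adjusted p = 0.0825). It was the 1 called gene of 24 sensory transduction channels with all libraries, and 0 of 24 were called without those 2. Of 37 potassium channel genes 0 passed in either fit (edgeR), and 10 had a positive change in each (27%, against 49% and 50% of all genes). Their medians were -0.07 and -0.09. Of 12 two-pore-domain potassium channel genes, the family of Twik1, 0 passed with all libraries, and of 13 tested without sham libraries 1 and 2 Kcnk16 rose. Of 14 sodium channel genes and 17 calcium channel genes 0 passed either, and with all libraries 6 and 5 of them had a positive change. Among the channels that did not pass, Cacna1h (-0.38), Scn11a (-0.23), Scn10a (-0.21) and Kcns3 (-0.20) had negative changes, and Kcnk5 (0.54), Trpm8 (0.43), Scn7a (0.11) and Kcnk4 (0.05) positive ones.

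Draxin, an axon guidance protein, was at 0.627, 0.441, 0.152 and 0.977 CPM in sham and at 4.85, 1.38 and 2.74 CPM after CCI. The injured libraries were above all sham libraries but spread over a wide range (2.43 ± 0.45, edgeR adjusted p = 0.0449), and the call was lost without sham libraries 1 and 2 (2.38 ± 0.62, edgeR adjusted p = 0.119). It rose in wild type too, by 3.19. Dusp1, a phosphatase that switches off MAP kinases and an immediate early gene, was at 36.4, 37.7, 42.5 and 46.6 CPM in sham and at 79.3, 72.9 and 77.4 CPM after CCI. Its groups were tight and well apart with all libraries (0.91 ± 0.16, edgeR adjusted p = 0.0449), yet against sham libraries 3 and 4 alone, the higher pair, it was not called (0.78, edgeR adjusted p = 0.157). Of 19 immediate early genes it was the 1 called. Fam171b, a membrane protein, had a narrow sham range, at 140.0 to 143.9 CPM, against 172.8 to 199.5 CPM after CCI (0.37 ± 0.07, edgeR adjusted p = 0.0406; 0.36, edgeR adjusted p = 0.0421 without sham libraries 1 and 2). The remaining rises were those of the crystallin family gene Cryba2 (1.20), the pentaspan membrane protein Prom1 (0.62), the mitotic kinase Nek6 (0.49) and the membrane protein Plxdc2 (0.47). Nek6 (0.53) and Plxdc2 (0.50) kept their calls without sham libraries 1 and 2, and Cryba2 (1.19, edgeR adjusted p = 0.0629) and Prom1 (0.54, edgeR adjusted p = 0.111) lost theirs. Exons of Dusp1 and Nek6 overlap those of Ergic1 and Psmb7 on the other strand. Unstranded reads there cannot be assigned to 1 gene. Where such reads were set aside as ambiguous, they are missing from the levels of both genes. The same limit holds for other genes named here whose exons overlap annotated exons on the other strand. Among these are Lamc3, Chrm1, Abcg2, Pde4c, Prom1, Plcd4, Khk, Itga7 and Dbp.

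**Figure D2:**
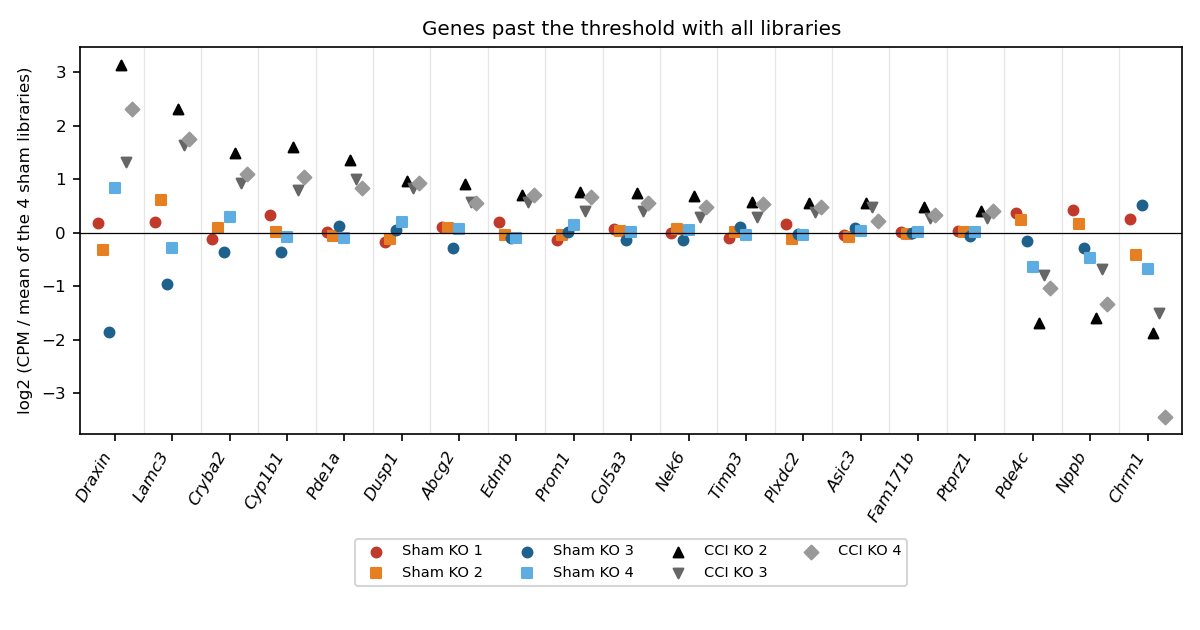
Level of the genes described above that passed the threshold with all libraries, as log2 of its CPM over the mean of the 4 sham libraries; each symbol is 1 knockout-labelled library. All CCI symbols lie above all sham symbols for the genes that rose and below them for Pde4c, Nppb and Chrm1. The genes were chosen by this contrast, so the separation is a description.

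The injury genes of sensory neurons behaved differently with and without sham libraries 1 and 2. Sprr1a, a proline-rich protein induced in regrowing axons, was at 96.5, 45.4, 0.838 and 1.51 CPM in sham libraries 1 to 4 and at 265.2, 87.8 and 197.5 CPM in CCI libraries 2, 3 and 4. Sham library 1 thus lay above CCI library 3, and the groups overlapped. The change was 2.35 ± 1.01 with all libraries (edgeR adjusted p = 0.529) and 7.27 ± 0.68 without sham libraries 1 and 2 (edgeR adjusted p = 0.00196). Npy, which encodes neuropeptide Y, was at 11.9, 7.66, 0.591 and 0.364 CPM in sham and at 68.2, 28.9 and 44.0 CPM after CCI. All CCI libraries were above all sham libraries, yet the change was not past the threshold with all of them (3.19 ± 0.79, edgeR adjusted p = 0.229; 6.63 ± 0.64, edgeR adjusted p = 0.00196 without sham libraries 1 and 2). Atf3, a stress-induced transcription factor, was at 229.6, 93.8 and 175.2 CPM after CCI, so CCI library 3 was below both sham libraries 1 and 2 (1.31 ± 0.71, edgeR adjusted p = 0.662; 3.77 ± 0.51, edgeR adjusted p = 0.0112 without them).

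**Figure D3:**
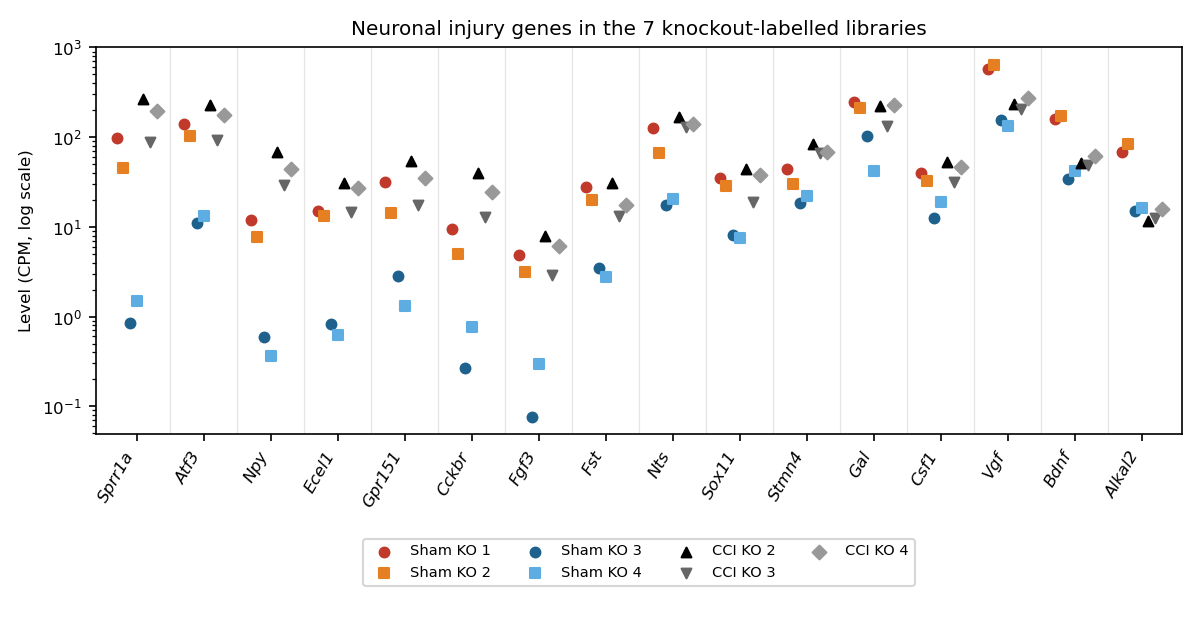
Level of 16 neuronal injury genes (CPM, log axis) in each knockout-labelled library; each symbol is 1 library. For Sprr1a, Atf3 and Ecel1 sham libraries 1 and 2 lie near or among the CCI libraries and sham libraries 3 and 4 far below. For Vgf, Bdnf and Alkal2 sham libraries 1 and 2 lie above all CCI libraries.

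Of 21 growth cone and axon regrowth genes, 0 passed with all libraries and 10 rose without sham libraries 1 and 2 (edgeR; 0.547% of all genes tested rose there). Among them were Stmn4, a stathmin that binds tubulin (1.87 ± 0.27, edgeR adjusted p = 0.0127), the small heat shock protein Hspb1 (0.50 ± 0.09, edgeR adjusted p = 0.00693) and the laminin receptor subunit Itga7 (0.70 ± 0.11, edgeR adjusted p = 0.00693). With all libraries Hspb1 (0.20, edgeR adjusted p = 0.734) and Itga7 (0.24, edgeR adjusted p = 0.826) did not pass. Stmn4 stood at 43.7, 30.0, 18.3 and 21.9 CPM in sham and at 84.1, 67.3 and 69.1 CPM after CCI. It was above all 4 sham libraries, but did not pass with all of them (1.37 ± 0.27, edgeR adjusted p = 0.118). Of 15 regeneration transcription factors 0 passed with all libraries and Atf3 and Sox11 rose without libraries 1 and 2. Sox11 was at 34.6, 28.8, 8.13 and 7.45 CPM in sham and at 43.6, 19.1 and 37.5 CPM after CCI, so that CCI library 3 lay between the sham pairs.

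Some transcripts were higher in sham libraries 1 and 2 than after CCI. Vgf, a secreted neuropeptide precursor, was at 576.1, 643.0, 155.9 and 134.2 CPM in sham and at 237.0, 207.2 and 275.7 CPM after CCI. The change was -0.65 with all libraries (edgeR adjusted p = 0.763) and 0.73 ± 0.13 without sham libraries 1 and 2 (edgeR adjusted p = 0.0136), opposite in sign. Bdnf, a neurotrophin, was at 161.0, 170.3, 34.5 and 42.3 CPM in sham and at 51.2, 48.7 and 61.2 CPM after CCI. Its changes were -0.92 (edgeR adjusted p = 0.605) and 0.48 (edgeR adjusted p = 0.160). Alkal2, a ligand of the receptor ALK, was at 68.3, 83.4, 15.1 and 16.4 CPM in sham and at 11.7, 12.4 and 15.8 CPM after CCI, which put the injured libraries level with sham libraries 3 and 4. Peptidergic nociceptor markers summed to 6802 and 7415 CPM in sham libraries 1 and 2, 4866 and 4552 CPM in libraries 3 and 4 and 4650 to 6013 CPM after CCI, and their part in these values was not tested. Sham libraries 1 and 2 thus did not hold the injury transcripts in the proportions of the CCI libraries. Against these 2 sham libraries alone, edgeR called 269 genes, 99 higher and 170 lower after CCI, of which 14 were among the 20.

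Without sham libraries 1 and 2, edgeR called 147 of 25415 genes (0.578%), of which 139 rose (0.547%) and 8 fell (0.0315%). In 130 of the 139 both left-out sham libraries lay above both retained ones, and in 40 their mean lay above the CCI mean. In 54 of the 139 all CCI libraries were above all 4 sham libraries, which held for 4.41% of all genes tested with all libraries. CCI library 2 was the highest of the injured libraries in 100 of the 139, library 4 in 36 and library 3 in 3. The 139 were chosen for a rise over sham libraries 3 and 4, so these positions are a description. For the other positions the share over all genes was not worked out. The count was 41 without CCI library 2, 46 without CCI library 4, 237 without CCI library 3 and 67 without sham library 4, and 76 without CCI wild-type library 1. Without sham library 3 it was 160, of which 63 rose and 97 fell, and 41 were among the 147. Without sham library 3 or 4 a single sham library remains, which is assumed to vary like the other groups.

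Among the largest rises of that fit were genes barely counted in sham libraries 3 and 4, for which no fold is given. Lipn, of the acid lipase family, had 0 and 1 counts there, 37 and 28 counts in sham libraries 1 and 2, and 210, 111 and 207 counts after CCI. Kcnk16, a two-pore-domain potassium channel like Twik1, had 1 and 0 counts in sham libraries 3 and 4, 58 and 35 in libraries 1 and 2, and 176, 33 and 95 after CCI. The injured libraries overlapped sham libraries 1 and 2 for Kcnk16 but not for Lipn. Anxa10, a calcium-dependent phospholipid-binding protein, had 1 and 6, 39 and 58, and 404, 112 and 190 counts in the same order. Crh, the corticotropin-releasing hormone, had 4 and 1, 277 and 125, and 94, 45 and 167 counts, so sham libraries 1 and 2 overlapped the injured ones.

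Other rises without sham libraries 1 and 2 were those of Cckbr, a cholecystokinin receptor (0.267 and 0.762 CPM to 39.4, 12.8 and 24.5 CPM), Fgf3, a fibroblast growth factor (0.0762 and 0.298 CPM to 7.88, 2.92 and 6.11 CPM), and Cyp26a1, which degrades retinoic acid (0.114 and 0.232 CPM to 7.33, 3.08 and 4.45 CPM). For Fgf3, sham library 1 (4.86 CPM) lay above CCI library 3, while for Cckbr and Cyp26a1 every CCI library was above all 4 sham libraries. Gpr151, an orphan receptor, rose by 4.11 ± 0.61 (edgeR adjusted p = 0.0161), and Fst, the activin-binding follistatin, by 2.71 ± 0.37 (edgeR adjusted p = 0.00704). With all libraries neither passed, at 1.5 (edgeR adjusted p = 0.619) and 0.61 (edgeR adjusted p = 0.881). Fst was at 28.0 and 19.7 CPM in sham libraries 1 and 2 and at 30.9, 13.1 and 17.7 CPM after CCI, and Gpr151 at 31.7 and 14.2 CPM against 53.6, 17.6 and 34.9 CPM, so both overlapped. Cckbr, Fgf3 and Cyp26a1 did not pass with all libraries either (2.73, 1.43 and 2.58, edgeR adjusted p = 0.368, 0.715 and 0.338). Nts, the gene of neurotensin, was at 125.9, 65.9, 17.7 and 20.3 CPM in sham and at 166.0, 129.4 and 140.3 CPM after CCI (2.93 ± 0.45, edgeR adjusted p = 0.0174; 1.34, edgeR adjusted p = 0.523 with all). Hrk, a pro-apoptotic BH3 protein, was low in all 4 sham libraries, at 0.678, 0.110, 0.305 and 0.248 CPM, and stood at 2.61, 1.90 and 1.79 CPM after CCI. It narrowly missed the threshold with all libraries (2.63 ± 0.51, edgeR adjusted p = 0.0535) and passed without libraries 1 and 2 (2.92 ± 0.57, edgeR adjusted p = 0.0174). Of the 8 falls, the phospholipase Plcd4 was at 36.1, 33.6, 58.2 and 62.7 CPM in sham and at 35.5, 47.9 and 34.97 CPM after CCI (-0.62 ± 0.11, edgeR adjusted p = 0.0112). The GTPase Rem2 (-0.58), the kinase Dapk2 (-0.56), the polarity protein Patj (-0.45), the ketohexokinase Khk (-0.41) and Angptl1 (-1.32) were the other falls named by the rule besides Chrm1. With all libraries these 6 genes did not pass: Plcd4 was at -0.27, Rem2 at -0.22, Dapk2 at -0.20, Patj at -0.19, Khk at -0.15 and Angptl1 at -0.88 (edgeR adjusted p 0.394 to 0.854). In 6 of the 8 both left-out sham libraries lay below both retained ones.

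Atf3 and Jun proteins belong to the bZIP factors that bind AP-1 sites, so the stretch before the start site of called genes was searched for the AP-1 letters TGANTCA and for the cyclic AMP response element TGACGTCA, on both strands, over 250 bases. A stretch that matches one pattern is not by itself a match of the other, though matches can overlap at their ends. TGANTCA was found before 825 of 16063 protein-coding genes tested (5.14%). It was found before 15 of 130 genes that rose without sham libraries 1 and 2 (11.5%), before 1 of 17 that rose with all libraries (5.88%), before 53 of 517 that rose in wild type (10.3%) and before 7 of 161 that fell there (4.35%). TGACGTCA was found before 1.88% of all, 2 of 130 and 1 of 17, the last being Dusp1. The stretches of 4 genes with a match are shown with it in capitals, read from GRCm39 on the minus strand, 5′ to 3′, and without bases of annotated exons. Sprr1a (chr3:92393209-92393458) has 2 matches, 96 and 126 bases before the start. Nts (chr10:102326397-102326597) has 1 at 139 bases, Anxa10 (chr8:62576185-62576402) 1 at 91 bases, and Cryba2 (chr1:74932303-74932552), the 1 match among the all-library rises, at 59 bases. The stretches shown for Nts and Anxa10 stop short of the start, because exon bases next to it were left off. Their distances still count to the start. A match of letters is not evidence of binding.
Sprr1a: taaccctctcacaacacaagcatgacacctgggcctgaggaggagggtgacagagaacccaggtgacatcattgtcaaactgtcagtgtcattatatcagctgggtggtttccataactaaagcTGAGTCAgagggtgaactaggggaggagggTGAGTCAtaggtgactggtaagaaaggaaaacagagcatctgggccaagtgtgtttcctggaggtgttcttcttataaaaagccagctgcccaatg
Nts: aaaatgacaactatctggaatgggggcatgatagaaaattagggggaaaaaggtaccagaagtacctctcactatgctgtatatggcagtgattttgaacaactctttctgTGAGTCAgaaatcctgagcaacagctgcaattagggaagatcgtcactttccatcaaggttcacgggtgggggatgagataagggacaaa
Anxa10: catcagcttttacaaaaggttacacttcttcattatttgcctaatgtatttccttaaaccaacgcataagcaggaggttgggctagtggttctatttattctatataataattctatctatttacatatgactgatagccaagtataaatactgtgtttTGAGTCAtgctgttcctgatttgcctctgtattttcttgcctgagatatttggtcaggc
Cryba2: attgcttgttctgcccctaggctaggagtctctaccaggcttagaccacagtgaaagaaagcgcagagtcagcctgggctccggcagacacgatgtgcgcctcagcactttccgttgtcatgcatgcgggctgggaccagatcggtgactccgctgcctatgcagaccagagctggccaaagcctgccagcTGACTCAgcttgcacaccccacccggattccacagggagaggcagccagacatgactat

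**Figure D4:**
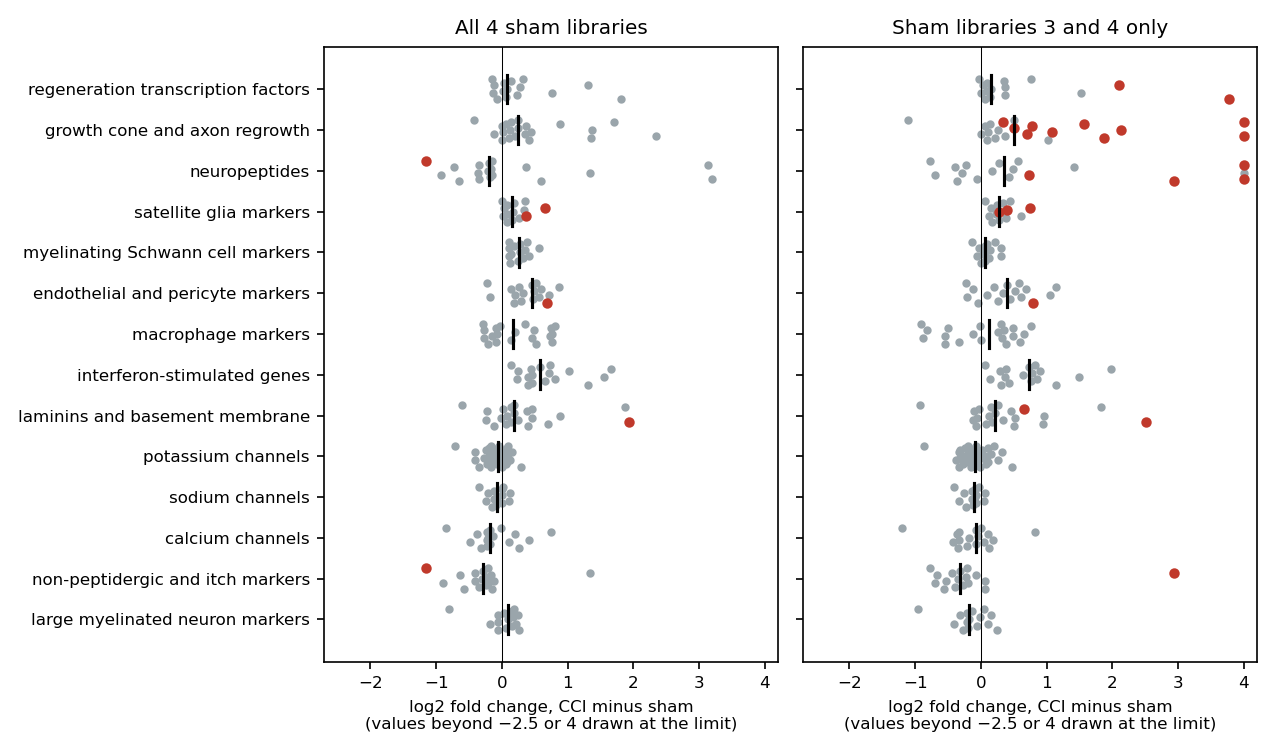
Log2 fold change, CCI minus sham, of each tested member of 14 gene lists with all 4 sham libraries (left) and with sham libraries 3 and 4 only (right); each point is 1 gene, red points passed the threshold and black bars mark the list medians. The growth cone list has 0 red points on the left and 10 on the right. All satellite glia points lie above 0 in both panels.

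Neuropeptides, the signalling peptides of sensory neurons, had different calls in the fits. Of 18 tested, 0 rose and Nppb fell with all libraries, with 5 positive and a median of -0.19. Without sham libraries 1 and 2, Npy, Nts, Crh and Vgf rose, 11 were positive and the median was 0.36. Gal, the gene of galanin, was at 247.2, 212.0, 104.0 and 42.1 CPM in sham and at 222.8, 132.3 and 227.3 CPM after CCI, overlapping the sham range, and did not pass in either fit (0.36, edgeR adjusted p = 0.938; 1.41, edgeR adjusted p = 0.531). Csf1, a growth factor for macrophages, was at 39.9, 32.5, 12.7 and 19.0 CPM in sham and at 52.3, 31.5 and 46.5 CPM after CCI, and did not pass either (0.74, edgeR adjusted p = 0.633; 1.45, edgeR adjusted p = 0.209). Of 20 macrophage markers 0 passed in either fit, with medians of 0.17 and 0.13. A positive change was seen in 11 of 20 in each fit (55%, against 49% and 50% of all genes). All CCI libraries were above all sham libraries for 5 of 20 (25%, against 4.41% of all genes). The macrophage receptor Csf1r was at 11.9, 10.8, 15.1 and 16.1 CPM in sham and at 26.8, 21.9 and 21.8 CPM after CCI, above all sham libraries, with a change of 0.80 ± 0.23 (edgeR adjusted p = 0.270). Macrophage markers summed to 282.5 CPM in sham library 4, the library with blood cell markers, and to 121.1 to 126.9 CPM in the other sham libraries, against 148.0 to 190.2 CPM after CCI.

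All 17 interferon-stimulated genes had a positive change in both fits, against 49% and 50% of all genes. Their medians were 0.58 and 0.73, and 0 of them passed (edgeR). Irf7, a transcription factor of this response, was at 8.81, 7.81, 13.2 and 10.9 CPM in sham and at 18.6, 10.9 and 32.3 CPM after CCI. CCI library 4 was highest and CCI library 3 was within the sham range, so the change of 1.02 ± 0.82 came with an edgeR adjusted p of 0.820. In wild type 0 of these 17 genes had a positive change (48.7% of all genes did), with a median of -0.63 and 0 called. There, Irf7 varied among the sham libraries (17.8 ± 25.4 CPM, SD, n = 5). It was at 63.2 CPM in wild-type sham library 1, at 5.29 to 7.84 CPM in the others and at 6.75 to 20.7 CPM after CCI. Ifi44 (12.9 against 0.278 to 1.88 CPM) and Oasl2 (147.2 against 42.9 to 54.7 CPM), of the same list, were also highest in that sham library. Its part in the wild-type changes was not tested.

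Myelinating Schwann cell markers had a positive change for 14 of 14 genes with all libraries, against 49% of all genes, and a median of 0.26. Without sham libraries 1 and 2 it was 10 of 14, against 50% of all genes, with a median of 0.07. In both fits 0 were called (edgeR). The list summed to 4850 and 5679 CPM in sham libraries 1 and 2, to 6849 and 6568 CPM in libraries 3 and 4, and to 6337 to 7820 CPM after CCI. Egr2, the transcription factor of myelination, was at 12.4, 23.1, 27.8 and 24.5 CPM in sham and at 34.5, 30.0 and 32.6 CPM after CCI. All 3 were above all sham libraries (0.56, edgeR adjusted p = 0.468). Of 15 repair Schwann cell markers 0 passed in either fit.

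The wild-type contrast, which shares scaling, filter and estimate of the spread with the knockout-labelled libraries, gave a list of injury genes. In it 562 rose (2.34%) and 171 fell (0.713%), together 3.06% of 23972. The shared spread bears on which genes are listed. Vgf rose by 0.88 in wild type in either fit. Its edgeR adjusted p there was 0.278 with all libraries and 6.9e-06 without knockout-labelled sham libraries 1 and 2. Genes that vary among the knockout-labelled libraries are thus less readily listed, and the shares below are a description. Of the 562, 523 (93.1%) had a positive change in the knockout-labelled libraries with all 4 sham libraries, against 49% of all genes, and the median was 0.33. The 3 CCI libraries were above all 4 sham libraries for 188 of them (33.5%, against 4.41% of all genes) and above sham libraries 3 and 4 for 407 (72.4%, against 13.1%). Relative to the mean of sham libraries 3 and 4, the median of these 562 genes was 0.25 in sham library 1 and 0.18 in sham library 2, and 0.56, 0.26 and 0.44 in CCI libraries 2, 3 and 4, as log2 of CPM plus 0.1. CCI library 3 and sham library 1 were thus nearly level on this measure. Of the 171 genes that fell in wild type, 47 had a positive change, and all CCI libraries were below all sham libraries for 20 (11.7%, against 3.15%). Among the 20 genes called in knockout-labelled libraries with all sham libraries, 11 were called in wild type in the same direction, which is 55% of the 20 and 1.5% of the 733. Without sham libraries 1 and 2 it was 89 of 147 (60.5%).

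The question whether injury acts differently in knockout-labelled ganglia is addressed by the interaction, the injury effect in knockout-labelled minus that in wild-type libraries. edgeR called 0 of 23972 genes (0%) with all libraries, with 1408 at an unadjusted p under 0.05, and 0 of 25415 (0%) without sham libraries 1 and 2, with 1317. DESeq2 called 20 and 5, and limma-voom 0 and 0. The smallest p-values with all libraries belonged to Smad6, an inhibitor of BMP signalling, and to Dbp and Ciart, which the circadian clock controls (edgeR adjusted p = 0.102 for all 3). Smad6 was at 0.932, 1.86, 1.85 and 2.25 CPM in sham and at 2.43, 4.44 and 4.78 CPM after CCI, where wild type went from 4.47 ± 1.01 to 2.07 ± 0.70 CPM (SD, n = 5 each). Dbp, which follows the time of day, was at 15.96, 16.5, 26.95 and 22.8 CPM in sham and at 18.8, 22.1 and 11.96 CPM after CCI, within the sham range but for library 4, where wild type went from 28.2 ± 2.83 to 9.54 ± 0.83 CPM. The sources used here do not give the time of day of collection. Without sham libraries 1 and 2, Lamc3 had the smallest p (2.2, edgeR adjusted p = 0.381), with Dbp (1.07), the helicase Dhx40 (0.73) and the granin Scg2 (0.50) at the same adjusted p. Sprr1a differed by -7.56 ± 1.74 with all libraries (edgeR adjusted p = 0.547) and by -2.64 without sham libraries 1 and 2 (edgeR adjusted p = 0.931), and Atf3 by -2.86 and -0.40. For a single gene an exact permutation test of 3 against 4 libraries cannot give a two-sided p below 0.0571, and of 3 against 2 not below 0.2.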

How the data were processed

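Per the labels' protocols, the kits were PicoPure for isolating RNA of L4 to L6 ganglia and SMART-Seq v4 for amplifying it, a method that does not mark strand. The authors used bcl2fastq 2.20.0.422 and STAR 2.7.11a with genome build GRCm39, per the submitters' processing notes. The authors deposited, for each library, whole-number read counts for every gene. The table names mark them as htseq-count output, and the sources used here do not give its version, strand setting or annotation.

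Lines naming no gene were removed. In the 7 knockout-labelled libraries, reads of no feature made up 4.04 to 4.53% and ambiguous reads 7.82 to 8.17% of all counts. GENCODE release 39 for mouse matched 78168 of 78298 identifiers. Genes passed edgeR's filterByExpr by group (minimum count 10, total 15), which left 23972, or 25415 without Sham_KO 1 and 2. Libraries were scaled by TMM. All 17 libraries (15 without Sham_KO 1 and 2) entered a model with a mean per group, fitted with edgeR's robust quasi-likelihood test, with 13 and 11 residual degrees of freedom and Benjamini-Hochberg adjustment over all tested genes. The software was R 4.3.3, edgeR 4.0.16, limma 3.58.1, DESeq2 1.42.0, NumPy 2.4.6 and Matplotlib 3.10.9. The procedure was tested on simulated data.

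Genes named were those past the threshold of 0.05 at a mean of 1 CPM or more, the largest changes without Sham_KO 1 and 2, up to 4 members of smallest p in each of 41 lists (632 symbols, 629 matched), injury markers, and the smallest interaction p-values. Members and lists were chosen with earlier results of these data known. Some named items are counted but not reported here. Alternatives were other scaling, filters and tests, knockout-labelled libraries alone, a replicate block and leaving out libraries.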

Additional observations from a re-analysis of the deposited data

Results flagged for a closer look

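Among 48 named genes in the 4 sham knockout-labelled libraries, 3 had a library far from the others by Dixon's ratio of the gap to the range, and chance flags about 1 in 20 such groups. Ednrb was highest in sham library 1, at 120.6 CPM, with the nearest library at 101.0 CPM. Abcg2 was lowest in sham library 3, at 114.5 CPM, with the nearest at 145.4 CPM. Pde6b, a phosphodiesterase subunit, was highest in sham library 1, at 2.66 CPM, with the nearest at 0.679 CPM.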

How the results depend on the processing

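The injury count of 20 was 147 without sham libraries 1 and 2, 269 without sham libraries 3 and 4 (99 higher, 170 lower; chosen after seeing the data), 11 with DESeq2 size factors, 224 with no low-count filter, 127 with DESeq2 (all 20 among them) and 4 with knockout-labelled libraries alone. With 1 library left out it was 0 to 43, and 0 of the 20 genes kept its call in every such fit, while 0 changed direction in any alternative. The count of 147 became 484 with no filter, 350 with DESeq2, 29 with limma-voom, 19 with knockout-labelled libraries alone and 41 to 237 with 1 library left out; of its 37 named calls 5 were kept in every fit with 1 library left out and 0 in every alternative. The interaction count of 0 became 77 with no filter, 20 with DESeq2, 356 without sham libraries 3 and 4 (99 higher, 257 lower) and 0 to 7 with 1 library left out; without sham libraries 1 and 2 it became 45, 5 and 0 to 39 (7 and 39 without sham library 3). The change of Kcnk1 turned to 0.13 without sham libraries 3 and 4 and ranged from -0.18 to 0.040 with 1 library left out (positive without sham library 4), and that of Gal to -0.24 without sham libraries 3 and 4. The cause of these shifts was not tested. With the replicate number as a block the injury count was 47 (46 higher, 1 lower, 12 of the 20) and the interaction count 0. Deviations of same-numbered knockout-labelled libraries correlated at -0.0043, 0.051 and 0.02, so the numbers were not taken to pair the samples. Libraries of 1 group differed beyond counting noise (chi-square per degree of freedom, pooled over genes, at least 14.8).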
